A study of Caenorhabditis elegans with 6 samples.

Results

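Ponceau Red and tartrazine, a pair of synthetic azo dyes used as food colorants, were compared with each other at the same dose in Caenorhabditis elegans. The comparison rested on 4 of 6 Affymetrix arrays, 2 from worms kept in 100 µM Ponceau Red and 2 from worms kept in 100 µM tartrazine. The other 2 arrays came from worms kept in water and serve here to show where each colorant pair lay. All worms were whole animals of the wild-type strain N2, grown in S medium at 20 °C, with the 48 h exposure starting 16 to 18 h after hatching. The labels call every group young adults of 3 days after hatching and name the arrays of a group as independent trials without saying what was independent, so p-values measure the spread between these arrays. Signals are log2 RMA values, that is, background-corrected, normalised and summarised over the probes of a transcript, and a difference of 1 is a 2-fold difference. Arrays are called here by the numbers in the deposited column names: Ponceau Red has arrays 2 and 3, while tartrazine and water each have arrays 1 and 2. The sources used here do not say which Ponceau dye was given, so no structural difference between the colorants is drawn, and they make 1 pair of compounds.

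Of 29317 probe sets, 27055 carried a gene name and entered the comparison. The genes of interest were those where both Ponceau Red arrays lay on one side of both tartrazine arrays. For each of them the gap is the distance between the nearest arrays of the 2 colorants, in log2 units.

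As background, a worm of this age passes from the last larval stage to the adult. Around each moult the epidermis makes collagens for a new cuticle, with secreted proteins and protease inhibitors that act when the old cuticle is shed. A hermaphrodite makes sperm first, late in larval life, and then switches its germ line to oocytes for good. Major sperm proteins are the small cytoskeletal proteins that let nematode sperm crawl and that also signal to oocytes. The intestine of the adult makes vitellogenins, the yolk proteins taken up by oocytes.

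The Ponceau Red arrays were not alike. Across probe sets, Ponceau Red arrays 2 and 3 correlated at 0.843, with 6492 probe sets more than 2-fold apart, whereas the tartrazine pair correlated at 0.982 with 767 such probe sets and the water pair at 0.987 with 436. With tartrazine arrays 1 and 2 the correlation was 0.980 and 0.991 for Ponceau Red array 2 and 0.810 and 0.827 for array 3. With the water arrays it was 0.829 and 0.840 for Ponceau Red array 2 and 0.918 and 0.933 for array 3. The markers of oogenesis and yolk divided the arrays in the same way. The yolk gene vit-2 read 10.76 and 1.83 in Ponceau Red, 9.64 and 9.99 in tartrazine, and 1.75 and 2.22 in water, so Ponceau Red array 2 sat with tartrazine and array 3 with water. Of 36 oocyte and eggshell genes, 36 and 22 were at or above the array median in Ponceau Red arrays 2 and 3, against 36 in each tartrazine array and 29 and 27 in the water arrays. For 45 germ line genes the counts were 44 and 23 in Ponceau Red, 44 and 44 in tartrazine, and 28 and 22 in water. All groups carry the same label for stage, but vit-2 was below the array median on Ponceau Red array 3 and on both water arrays. In whole animals, fewer cells of a type and less RNA per cell cannot be told apart.

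No probe set passed the test between the colorants. With limma, a linear model fitted over all probe sets, 0% rose and 0% fell at a Benjamini-Hochberg adjusted p under 0.05. An unadjusted p under 0.05 was reached by 1219 of 27055, a share below 0.05. The lowest adjusted p was 0.681. The median difference, Ponceau Red minus tartrazine, was -0.00387 log2, and the median probe set had a 95% interval of 0.644 log2 to either side, so that differences of this size are not excluded for a typical gene and the colorants are not shown to act alike. For a single gene, an exact permutation of 2 arrays against 2 cannot give a two-sided p below 0.333. The count depended on the Ponceau Red arrays. A fit without array 2 leaves array 3 alone and assumes that it varies like the tartrazine and water pairs. In that fit 7532 probe sets passed (4005 higher and 3527 lower), which describes the distance of array 3 from tartrazine and is no count of colorant differences. With array 2 alone, under the same assumption, none passed and 1062 had an unadjusted p under 0.05. All gene values below are therefore descriptions of 4 arrays.

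Both Ponceau Red arrays lay above both tartrazine arrays for 5050 probe sets, 18.7% of those tested, and below them for 4547, or 16.8%. Most of these gaps were small, with a median of 0.136 log2 on the higher side and 0.113 on the lower side. A further 1844 probe sets had Ponceau Red array 2 above and array 3 below the tartrazine pair, and 2652 had the opposite arrangement. For 12962 at least 1 Ponceau Red array lay within the tartrazine range. Ponceau Red array 3 alone was 1 log2 or more above both tartrazine arrays for 3111 probe sets and as far below for 2949, against 34 and 44 for Ponceau Red array 2.

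**Figure D1:**
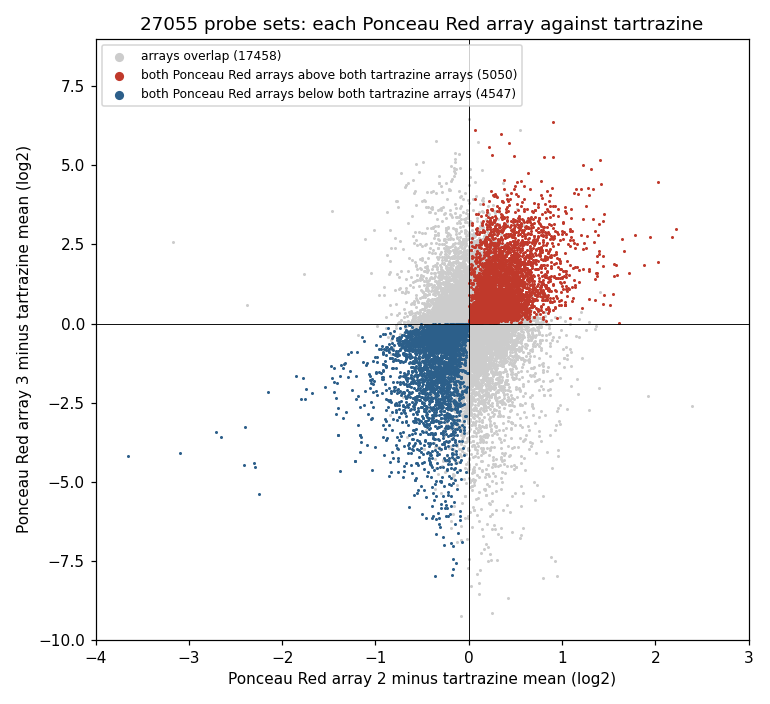
Each point is a probe set, placed by the log2 difference of Ponceau Red array 2 (horizontal) and array 3 (vertical) from the mean of both tartrazine arrays; the axes have different ranges. Red points are the 5050 with both Ponceau Red arrays above both tartrazine arrays, blue the 4547 with both below, and grey the rest; the spread along the vertical axis is several units, that along the horizontal axis mostly under 1.

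A gap of at least 1 log2 was reached by 23 probe sets on the higher side (0.085% of those tested) and by 40 on the lower side (0.148%), where the 40 had 38 distinct names. The balance depended on the table used: with the other deposited RMA table, each array centred on its median, 124 were higher and 73 lower, so 62.9% lay on the higher side against 36.5% here. Non-coding RNAs made up 5 of the 23 and 3 of the 40. Of these 3, C16H3.6 and C16H3.7 had identical values in all 6 arrays, so they are not separate measurements. The threshold had no natural break: on the higher side the gaps just inside and just outside were 1.0046 for F02E11.8 and 0.999 for mec-7, and on the lower side 1.019 for nspd-7 and 0.9997 for gsp-3, a sperm protein phosphatase. Ponceau Red array 3 was farther than array 2 from tartrazine in 20 of the 23 and 36 of the 40. The gap was larger than the distance within either colorant pair in 13 of the 23 and 24 of the 40. At a gap of 0.5 log2 the counts were 393 higher (1.45%) and 253 lower (0.935%).

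Cuticle genes led the higher side. Of the 23 probe sets, 6 were cuticle collagens (col-17, col-48, col-107, col-167, col-169 and dpy-13) and 1 was the moulting gene mlt-11. The collagen col-17 (chromosome II, 4866723 to 4867574 in WBcel235) read 4.88 and 5.26 in Ponceau Red, 3.32 and 3.56 in tartrazine and 8.90 and 8.78 in water. The groups did not overlap, and the difference between the colorants was 1.63 ± 0.21 log2 (SE, n = 2 arrays each). In dpy-13, a collagen whose loss shortens the worm, Ponceau Red arrays read 6.04 and 6.42 and both tartrazine arrays 4.76, a difference of 1.48 ± 0.20 log2, with water at 10.20 and 10.03. For both genes the Ponceau Red arrays stood close together and nearer to tartrazine than to water.

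Other collagens had a wider Ponceau Red pair. For col-48 the readings were 4.03 and 5.83 in Ponceau Red, 2.71 and 2.46 in tartrazine and 7.26 and 7.11 in water. For col-167 they were 6.93 and 7.95 in Ponceau Red, 4.60 and 5.71 in tartrazine and 9.39 and 8.97 in water. Here Ponceau Red array 3 lay well above array 2, on the side of water. Tightest was col-107, with 6.93 and 7.01 in Ponceau Red, 5.92 and 5.91 in tartrazine and 9.40 and 9.20 in water. Of 172 measured collagens, 64 (37.2%) had both Ponceau Red arrays above both tartrazine arrays and 9 (5.23%) below, against 18.6% and 16.9% of all 26751 named genes when each is counted once. A gap of 0.5 log2 or more was seen in 27 collagens on the higher side and 1 on the lower, and 6 and 0 had a gap of 1. None passed the limma test, and 33 had an unadjusted p under 0.05 with the higher value in Ponceau Red. Over the collagens, the median distance from the tartrazine mean was 0.20 log2 on Ponceau Red array 2, 0.56 on array 3 and 1.94 for water. Taken 1 array at a time, Ponceau Red array 2 lay above both tartrazine arrays for 97 collagens and below for 28, and array 3 for 107 and 42. Over all 26751 genes the counts were 7579 above and 8901 below for array 2, and 11456 and 9400 for array 3. Collagen genes resemble each other in sequence, so 1 probe set may read others as well.

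Not all collagens followed. For col-19, a collagen of the adult cuticle, the readings were 8.12 and 2.40 in Ponceau Red, 6.93 and 7.91 in tartrazine and 3.19 and 3.20 in water, so the 2 colorants overlapped. For col-143 they were 10.74 and 2.99 in Ponceau Red, 10.88 and 10.98 in tartrazine and 1.69 and 2.35 in water. Both genes repeat the division seen for yolk.

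Moulting genes showed the same order of groups. The mlt-11 gene, for a large protease inhibitor-like protein that worms need to moult, read 6.49 and 7.79 in Ponceau Red, 5.33 and 5.19 in tartrazine and 7.52 and 7.74 in water. The hedgehog-related gene grl-7 read 4.78 and 5.27 in Ponceau Red, 3.76 and 3.89 in tartrazine and 8.34 and 8.17 in water. For noah-2, a component of the epidermal matrix, the values were 6.27 and 8.78 in Ponceau Red, 4.94 and 5.40 in tartrazine and 9.25 and 9.33 in water. In all 3 the tartrazine pair was the lowest of the 6 arrays. Of 132 moulting and hedgehog-related genes, 51 (38.6%) lay higher and 12 (9.09%) lower in Ponceau Red without overlap, against 18.6% and 16.9% of all genes. In 6 of the list the gap was 0.5 or more, all higher. The list's median distance from tartrazine was 0.09 log2 on Ponceau Red array 2, 0.49 on array 3 and 1.04 for water.

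**Figure D2:**
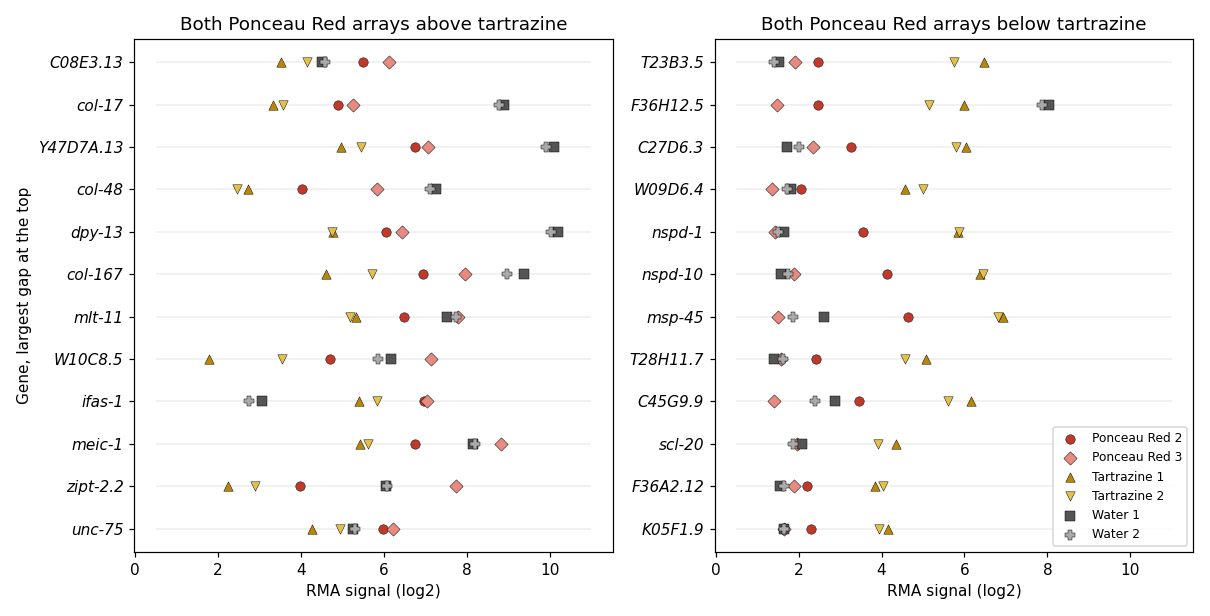
Log2 RMA signal of each array for the 12 coding genes with the largest gap in each direction, Ponceau Red in red, tartrazine in gold and water in grey. On the left the tartrazine symbols lie lowest in all genes but ifas-1, and on the right they lie highest in all but F36H12.5.

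The remaining genes with wide gaps on the higher side had varied roles. C08E3.13 had the largest gap of a coding gene, 1.35 log2, with 5.49 and 6.13 in Ponceau Red, 3.52 and 4.14 in tartrazine and 4.50 and 4.59 in water. The splicing factor gene unc-75, active in neurons, read 5.98 and 6.22 in Ponceau Red, 4.27 and 4.94 in tartrazine and 5.26 and 5.29 in water. In both genes the water pair lay between the colorants. The zinc transporter gene zipt-2.2 read 3.96 and 7.74 in Ponceau Red, 2.23 and 2.88 in tartrazine and 6.05 and 6.08 in water, and its difference of 3.29 ± 1.25 log2 rested largely on Ponceau Red array 3. The fatty acid synthase gene fasn-1 read 7.72 and 9.18 in Ponceau Red, 6.71 and 6.60 in tartrazine and 7.98 and 8.32 in water. The gene tfg-1, for a factor in export from the endoplasmic reticulum, stood apart with close pairs, at 8.30 and 8.33 in Ponceau Red, 7.03 and 7.30 in tartrazine and 8.92 and 8.80 in water. In ifas-1 the order of water was the opposite: 6.98 and 7.04 in Ponceau Red, 5.40 and 5.84 in tartrazine and 3.05 and 2.74 in water. Further coding genes in this set were Y47D7A.13, W10C8.5, meic-1, tsp-2 (a tetraspanin) and H11E01.3.

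In lists of neurons and muscle more genes lay higher than lower with Ponceau Red, although many overlapped. The touch receptor neuron genes were gathered after the values of mec-7 and mec-12 had been seen. The beta-tubulin gene mec-7 read 6.29 and 7.71 in Ponceau Red, 4.52 and 5.29 in tartrazine and 7.15 and 7.54 in water. Its partner mec-12, an alpha-tubulin, read 7.48 and 8.74 in Ponceau Red, 6.17 and 6.50 in tartrazine and 8.55 and 8.69 in water. Of 15 such genes 8 lay higher and 0 lower, against 18.6% and 16.9% of all genes. The 15 had median distances from tartrazine of 0.47 and 2.08 log2 in Ponceau Red arrays 2 and 3 and 0.85 in water. Of 114 neuropeptide genes, 40 (35.1%) lay higher and 6 (5.26%) lower. For them the distance was 0.07 log2 on Ponceau Red array 2 and 1.64 on array 3. Array 3 alone was above both tartrazine arrays for 93 of the 114 and for 15 of the 15 touch receptor genes. Array 2 alone was above for 45 and 8. Over all 26751 genes these counts were 11456 for array 3 and 7579 for array 2. The neuropeptide gene flp-27, for example, read 6.41 and 8.20 in Ponceau Red, 5.22 and 5.78 in tartrazine and 7.22 and 7.004 in water.

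Of 42 muscle contractile genes, 22 (52.4%) lay higher and 6 (14.3%) lower, against 18.6% and 16.9% of all genes. The vinculin gene deb-1 read 7.59 and 8.91 in Ponceau Red, 6.99 and 6.98 in tartrazine and 8.69 and 8.83 in water. Against this direction, the pharyngeal myosin gene myo-2 read 2.52 and 2.56 in Ponceau Red, 3.24 and 3.25 in tartrazine and 3.50 and 3.59 in water. The body wall myosin gene unc-54 overlapped, with 9.92 and 9.29 in Ponceau Red and 9.24 and 9.58 in tartrazine.

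Several lists of basic metabolism and protein handling had more genes on the higher side than the background. Over all genes 18.6% lay higher and 16.9% lower. Most members of these lists were at or above the array medians. Of 13528 probe sets at or above the median mean signal, 3366 lay higher and 2314 lower. The part of brightness in the list shares was not tested. In amino acid and sugar metabolism, 41 of 76 genes (53.9%) lay higher and 8 (10.5%) lower. The glycolytic gene pgk-1 read 6.97 and 7.55 in Ponceau Red, 6.15 and 6.21 in tartrazine and 7.67 and 7.46 in water. Both Ponceau Red arrays contributed: array 2 alone was above both tartrazine arrays for 51 of these genes and array 3 for 49. Over all 26751 genes these counts were 7579 for array 2 and 11456 for array 3. Of 14 genes of endoplasmic reticulum stress and folding, 8 lay higher and 0 lower. Among them, pdi-2, for protein disulphide isomerase, read 8.88 and 9.88 in Ponceau Red, 8.38 and 8.23 in tartrazine and 10.24 and 10.10 in water. The chaperone gene hsp-3 read 7.79 and 8.44 in Ponceau Red, 7.14 and 7.33 in tartrazine and 8.36 and 8.66 in water.

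In the list of respiratory chain and ATP synthase genes, 21 of 45 (46.7%) lay higher and 9 (20.0%) lower, against 18.6% and 16.9% of all genes. The list also holds lpd-2 and lpd-6, which are not subunits of these complexes, and both are among the 9. The ATP synthase gene atp-4 read 8.88 and 9.37 in Ponceau Red, 7.91 and 8.26 in tartrazine and 9.45 and 9.09 in water. Going the other way, cyc-2.2, which encodes a cytochrome c, read 3.36 and 2.27 in Ponceau Red, 4.80 and 4.30 in tartrazine and 4.97 and 5.27 in water. Of 33 proteasome subunits 16 (48.5%) lay higher and 3 (9.09%) lower, and of 67 cytosolic ribosomal proteins 28 (41.8%) and 14 (20.9%). Their median differences were both 0.13 log2, below the typical interval.

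On the lower side the widest gap of any probe set was that of T23B3.5 (chromosome I, 6705546 to 6706404). It read 2.46 and 1.92 in Ponceau Red, 6.48 and 5.75 in tartrazine and 1.54 and 1.40 in water. The difference was -3.93 ± 0.33 log2, with a 95% interval of -4.79 to -3.07 and an adjusted p of 0.681 in the limma fit. Where readings lie near or below the array medians, from 2.14 to 2.40, as here in Ponceau Red and water, a difference may be understated. F36H12.5 read 2.47 and 1.48 in Ponceau Red, 5.98 and 5.15 in tartrazine and 8.03 and 7.88 in water. It is the only one of the 12 widest on this side where water lay highest. The gene scl-20, of a family of secreted proteins, had close pairs, at 1.98 and 1.97 in Ponceau Red, 4.36 and 3.91 in tartrazine and 2.08 and 1.86 in water.

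Among the 12 widest were also C27D6.3, W09D6.4, T28H11.7, C45G9.9 and F36A2.12, with differences between -3.43 and -1.90 log2 and tartrazine highest in each.

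Sperm genes were the most frequent named group of the lower side. Of the 38 names with a gap of at least 1 log2, 2 were in the list of major sperm proteins, 6 in that of other sperm genes, and 4 more were described as major sperm proteins in the deposited annotation. The gene msp-45 read 4.63 and 1.49 in Ponceau Red, 6.94 and 6.82 in tartrazine and 2.62 and 1.86 in water. For msp-57 the readings were 5.05 and 1.77 in Ponceau Red, 6.32 and 6.55 in tartrazine and 2.08 and 2.03 in water. In both, Ponceau Red array 2 was intermediate and array 3 was with water.

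The same order held for nspd-1 and nspd-10, of a nematode-specific peptide family found in sperm. The first read 3.56 and 1.43 in Ponceau Red, 5.85 and 5.86 in tartrazine and 1.66 and 1.501 in water. The second read 4.13 and 1.90 in Ponceau Red, 6.38 and 6.46 in tartrazine and 1.56 and 1.75 in water. The sperm gene spe-11, whose product the embryo needs from the father, read low in both Ponceau Red arrays, at 2.23 and 1.65, against 4.31 and 3.74 in tartrazine and 1.92 and 1.57 in water. A similar pattern without an intermediate array was seen for K05F1.9, described as a major sperm protein, with 2.29 and 1.66 in Ponceau Red, 4.14 and 3.93 in tartrazine and 1.65 in each water array.

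Over the list of 29 major sperm proteins, 18 (62.1%) lay lower and 1 (3.45%) higher in Ponceau Red, against 16.9% and 18.6% of all genes. The median difference of the 29 was -0.82 log2. Ponceau Red array 2 alone was below both tartrazine arrays for 18 of them and above for 2, and array 3 for 24 and 2. Of the 76 other sperm genes, 37 (48.7%) lay lower and 3 (3.95%) higher, with a median of -0.23 log2. There, array 2 alone was below for 52 and above for 6, and array 3 for 47 and 18. Over all 26751 genes, array 2 alone was below for 8901 and above for 7579, and array 3 for 9400 and 11456. A further 52 genes outside the list are described as major sperm proteins, and 26 of these lay lower and 3 higher. For 17 of the 29 and 33 of the 76, both tartrazine arrays were higher than all of the other 4 arrays. Many members were dim. At or above the array median were 17 and 21 of the 29 in tartrazine, and 18 and 6 in Ponceau Red. Of the 76, the counts were 37 and 41 in tartrazine and 31 and 22 in Ponceau Red. Many members share sequence, so they are not separate measurements: Y59E9AR.7, for example, was read by 2 probe sets with identical values. None passed the limma test, and 6 and 16 genes of the 2 lists had an unadjusted p under 0.05, all lower in Ponceau Red. Over all 27055 probe sets 1219 did so in either direction.

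Further sperm markers show the range. The sperm histone gene htas-1 read 1.82 and 1.87 in Ponceau Red, 2.59 and 2.40 in tartrazine, with a mean of 1.53 in water. The fertilisation gene spe-9 overlapped, with 1.82 and 1.93 in Ponceau Red and 2.02 and 1.90 in tartrazine, all below the array medians.

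**Figure D3:**
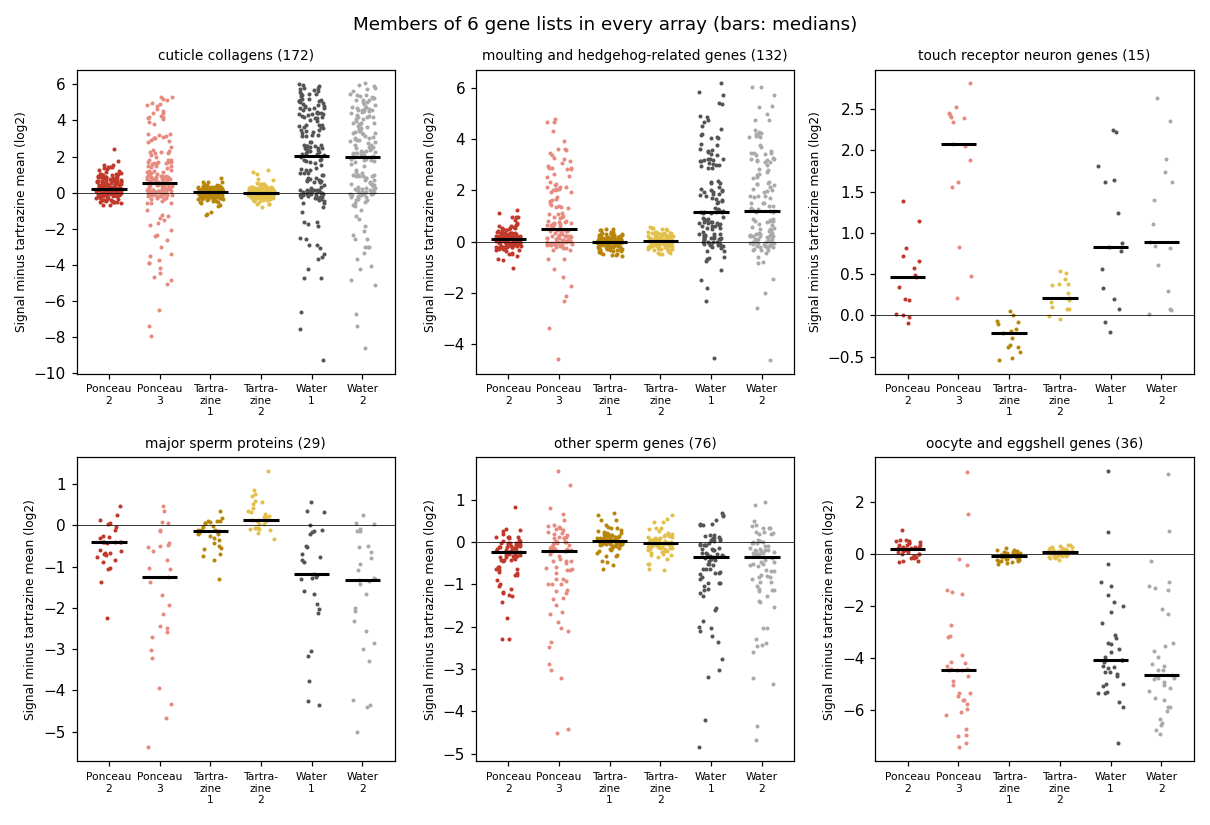
Every member of 6 gene lists in every array, as its log2 signal minus its tartrazine mean, with bars at the medians and Ponceau Red leftmost, then tartrazine, then water. For both sperm lists the medians of both Ponceau Red arrays lie below the tartrazine line, whereas for oocyte and eggshell genes the median is above it on Ponceau Red array 2 (0.20) and below it on array 3 (-4.46).

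Oocyte, germ line and yolk genes showed large differences but between the Ponceau Red arrays. The 6 vitellogenins had 0 genes without overlap in either direction, since Ponceau Red array 2 was above both tartrazine arrays for 6 of 6 and array 3 below for 6 of 6. The median distance of vitellogenins was 0.67 log2 in array 2 and -8.02 in array 3. Of the 36 oocyte and eggshell genes, 7 (19.4%) lay lower and 1 (2.78%) higher, and of the 45 germ line genes 14 (31.1%) lay lower and 0 higher. Over all genes 16.9% lay lower and 18.6% higher. The meiotic gene syp-1 had the widest gap of the germ line list, with 4.44 and 1.51 in Ponceau Red, 5.34 and 5.05 in tartrazine and 1.60 and 1.43 in water. On Ponceau Red array 2 the median distance from tartrazine was -0.42 log2 for major sperm proteins, 0.20 for oocyte genes and -0.01 for germ line genes. The part of germ cell content in any result was not tested.

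Metal genes went both ways. The metallothionein gene mtl-1 read 6.50 and 5.03 in Ponceau Red, 7.57 and 8.06 in tartrazine and 8.68 and 9.04 in water. The second metallothionein gene, mtl-2, read 4.57 and 2.60 in Ponceau Red, 5.67 and 5.12 in tartrazine and 5.61 and 5.83 in water. In both, the Ponceau Red pair was the lowest of the 6 arrays. Against them stood the zinc transporter genes zipt-2.2, above, and zipt-7.2, which read 5.82 and 6.85 in Ponceau Red, 5.20 and 5.23 in tartrazine and 6.48 and 6.66 in water. Of 33 genes in the metal response list 10 (30.3%) lay higher and 4 (12.1%) lower, against 18.6% and 16.9% of all genes. The 10 include ttm-5, which is not a metal gene.

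Lists of genes that handle foreign compounds were either balanced or held more genes on the higher side. Of 73 cytochrome P450 genes, 10 (13.7%) lay higher and 9 (12.3%) lower, and of 67 UDP-glucuronosyltransferases 9 (13.4%) and 8 (11.9%), all below the shares of all genes. The widest P450 gap was that of cyp-35B1, with 4.87 and 6.70 in Ponceau Red, 3.54 and 3.99 in tartrazine and 8.47 and 8.80 in water. Glutathione S-transferases lay higher more often, 15 of 49 (30.6%) against 4 lower (8.16%). Their widest gap was that of gst-39, with 3.97 and 5.10 in Ponceau Red, 2.28 and 3.15 in tartrazine and 6.04 and 5.86 in water. For ABC transporters the counts were 13 higher (26.5%) and 5 lower (10.2%) of 49. For short-chain dehydrogenases they were 8 (23.5%) and 3 (8.82%) of 34, against 18.6% and 16.9% of all genes.

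Stress and immune lists were likewise spread, except that cytosolic heat shock genes lay lower more often. Of 48 such genes 16 (33.3%) lay lower and 9 (18.8%) higher. Their median difference of -0.01 log2 turned positive (0.01) when arrays were centred on their medians. On the lower side, dnj-10 read 5.76 and 4.54 in Ponceau Red, 6.16 and 6.55 in tartrazine and 4.92 and 4.96 in water. On the higher side, the chaperone gene hsp-90 read 6.24 and 6.46 in Ponceau Red, 5.80 and 5.92 in tartrazine and 6.06 and 5.85 in water. The list of antioxidant enzymes had 5 (16.1%) higher and 4 (12.9%) lower of 31, and the 5 include the transcription factor gene skn-1. The superoxide dismutase gene sod-5 read 2.49 and 3.79 in Ponceau Red against 2.12 and 2.09 in tartrazine. C-type lectins had 39 higher and 34 lower of 244, lysozymes and saposin-like proteins 7 and 8 of 44, and antimicrobial peptides and immune response genes 12 and 15 of 88. In this last list irg-7 had close pairs, at 10.20 and 10.09 in Ponceau Red, 9.25 and 9.33 in tartrazine and 10.45 and 10.60 in water. PALS and pathogen response genes had 4 (9.09%) higher and 3 (6.82%) lower of 44. Over all genes the shares were 18.6% higher and 16.9% lower.

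For the other lists the shares of all genes to compare are 18.6% higher and 16.9% lower. Fat metabolism had 34 (27.9%) higher and 23 (18.9%) lower of 122, the 23 including the Mediator genes mdt-11 and mdt-27. Intestinal proteases had 9 (20.9%) and 3 (6.98%) of 43. Nuclear hormone receptors had 63 (22.3%) and 26 (9.19%) of 283, and histones 12 (23.5%) and 9 (17.6%) of 51. Some linker histone genes were among the widest of the histones on the higher side: hil-3 read 4.58 and 5.22 in Ponceau Red, 3.27 and 3.61 in tartrazine and 5.55 and 5.45 in water. The linker histone gene his-24 read 5.09 and 5.19 in Ponceau Red, 4.02 and 4.29 in tartrazine and 5.39 and 5.09 in water. Another, hil-5, lay lower, with 4.33 and 1.87 in Ponceau Red, 4.60 and 4.49 in tartrazine and 2.48 and 1.55 in water. Insulin-like peptides had 5 each way of 40, chemoreceptors 152 higher and 202 lower of 1311, and F-box and MATH-BTB genes 62 and 71 of 444. Chemoreceptors were mostly dim, with 44 and 93 of 1311 at or above the array median in Ponceau Red and 43 and 39 in tartrazine.

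**Figure D4:**
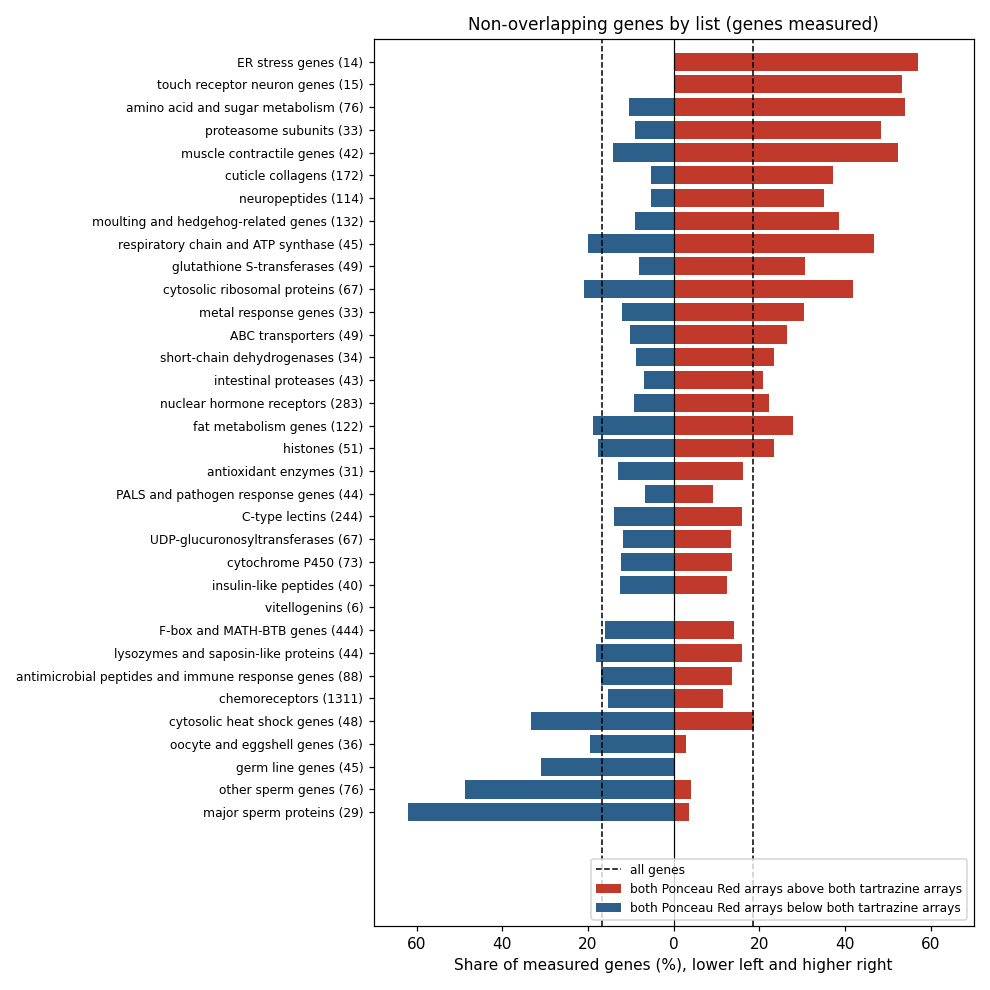
Share of the measured genes of each list with both Ponceau Red arrays above (red, right) or below (blue, left) both tartrazine arrays, with the number measured in brackets; dashed lines mark all genes, 18.6% higher and 16.9% lower. Major sperm proteins extend farthest to the left (62.1%) and ER stress genes farthest to the right (57.1%).

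The water arrays show which colorant pair lay beyond the other 4 arrays, not how far either pair lay from water. For col-17 and dpy-13 tartrazine was lowest, yet Ponceau Red lay nearer to tartrazine than to water. Ponceau Red array 3 also correlated with the water arrays at 0.918 and 0.933, against 0.829 and 0.840 for array 2. Of the 23 probe sets with a gap of at least 1 log2 on the higher side, tartrazine alone lay beyond the other 4 arrays in 19, Ponceau Red alone in 2 (ifas-1 and the non-coding RNA Y67D8C.12), and water lay between the colorants in 2. Of the 40 on the lower side, tartrazine alone lay beyond the others in 36, Ponceau Red alone in 2 (F36H12.5 and mtl-1), and water lay between in 2 (F11G11.4 and the non-coding RNA F14H8.10). At any gap, on the higher and the lower side, Ponceau Red alone lay beyond the others in 1097 and 1004, and tartrazine alone in 3352 and 3094.

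The genes on both sides differed in where they lie. Of 2635 coding genes on the X chromosome among those measured, which are 13.7% of coding genes, 80 were in the higher set at a gap of 0.5 log2 (24.9% of 321) and 13 in the lower set (5.51% of 236). At a gap of 1 log2 the X chromosome held 3 of 18 (16.7%, near its share of coding genes) and 0 of 35. Chromosome I, with 14.5% of coding genes, held 10.3% of the higher set and 22.9% of the lower set at 0.5 log2. At 1 log2 its shares were level, at 27.8% and 28.6%. Some members were neighbours. The adjacent genes zipt-2.2 and dpy-13 lie between 4229136 and 4236710 on chromosome IV, and col-167 and col-169 between 6323488 and 6330062 on X. On the lower side, 6 genes (ssq-2, T28H11.7, msp-57, Y59E9AR.7, F36H12.5 and ZK354.7) lie between 4996142 and 5303130 on chromosome IV. This stretch has 61 measured coding genes, of which 27 lay lower without overlap, against 16.9% of all genes. It was drawn from the first to the last of the 6, which count among the 27. All positions are from the RefSeq annotation of WBcel235, the build named in the deposited annotation.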

How the data were processed

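Whole-worm RNA was amplified from 3.5 ng with a whole-transcript kit and hybridised to Affymetrix arrays. The deposited values are log2 RMA signals computed by the authors over 6 arrays, per the file headers and the submitters' processing notes, which name RMA. For its version and options nothing is given in the sources used here. The other deposited log2 table, with 1 column per labelled sample, was an alternative. Names came from RefSeq (WBcel235) for 23508 probe sets by accession, 3062 by symbol and 239 by synonym, and from the deposited table for 246; 2262 unnamed ones were left out.

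Groups were fitted with limma 3.58.1 (lmFit, eBayes, two-sided, R 4.3.3) over all 6 arrays, with no block and no filter, and adjusted over 27055 probe sets. There are 3 residual degrees of freedom and a prior of 1.78. Each of 34 gene lists was counted by its brightest probe set per gene. The members and lists were chosen with earlier results of these data known. Named were the 12 coding genes with the widest gap in each direction (higher pair at or above the array medians), up to 3 per list and direction, and vit-2. Marker genes and others with gaps of 1 log2 that are named beyond this were chosen after their values were seen. Array signals have no counting depth, and the number of arrays limits precision. Alternatives were other samples in the fit, centring, a replicate block, the other table, another prior, a signal filter, other gap thresholds and leaving out each array.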

Additional observations from a re-analysis of the deposited data

Results flagged for a closer look

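In 14 named genes, both Ponceau Red arrays lay on one side of both water arrays and both tartrazine arrays on the other. This is an order of 2 arrays per group, and neither colorant was tested against water here. Whether the colorants differ was tested only by the contrast between them, which none passed in the limma fit. The differences, Ponceau Red minus tartrazine, were 1.98 log2 for C08E3.13, 1.49 for unc-75, 1.03 for sod-5, 0.61 for str-154, 0.58 for hsp-1, 0.52 for srx-38 and 0.22 for cyp-33D3 where Ponceau Red was higher. They were -2.16 for F14H8.10, -1.94 for F11G11.4, -1.43 for gsp-3, -0.74 for gln-2, -0.41 for dhs-24, -0.38 for abt-1 and -0.22 for nas-25 where it was lower. Such an arrangement held for 198 probe sets on the higher side and 107 on the lower, and in several, such as sod-5, tartrazine and water were almost level.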

How the results depend on the processing

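The count of calls stayed at 0 in every setting but the one without Ponceau Red array 2, so that leaving out 1 array gave 0 to 7532. Fits with 1 array of a group assume that it varies like the other groups, so the 7532 describe Ponceau Red array 3 alone; unadjusted counts ran from 394 to 2744 in the other settings. With a replicate block for the labelled trial there were 0 calls and 1594 at an unadjusted p under 0.05; deviations of same-numbered arrays correlated at -0.03 between the colorants, 0.05 between Ponceau Red and water and 0.16 between tartrazine and water, so the numbers were not taken to pair the arrays. The non-overlapping count of 9597 became 5680 among the brighter probe sets, of which fewer were tested, and 16664 to 21093 with 1 colorant array left out, which loosens the rule. The 63 with a gap of 1 log2 became 197 with the other deposited table (124 higher, 73 lower, or 62.9% higher against 36.5%), 646 at 0.5 log2 (60.8% higher), 9 at 2 log2 (none higher) and 78 to 6060 with 1 array left out. With those values tartrazine lay apart in 160, Ponceau Red in 10 and water between in 26; the cause was not tested. Of the 23 and 40, all stayed without overlap with the other table, 19 and 32 at 1 log2. At any gap the other table gave 12185 probe sets without overlap (6846 higher, 5339 lower) against 9597. List counts moved for 10 of 34 lists with the other table. They moved for 14 lists among the brighter probe sets, where 3366 probe sets lay higher and 2314 lower. Among named genes, trx-2 (0.0082), sod-1 (0.058) and rpt-4 (0.14) changed sign with the other table, and vit-2 ran from -7.98 without Ponceau Red array 2 to 0.94 without array 3. Medians of collagen, moulting, sperm, germ line, muscle, neuropeptide and amino acid lists kept their sign in every setting, but without Ponceau Red array 3 germ line stood at -0.01 (against -1.65), neuropeptides at 0.07 (0.87), moulting genes at 0.09 (0.33), collagens at 0.20 (0.39), muscle at 0.24 (0.45) and major sperm proteins at -0.42 (-0.82); those of vitellogenins (0.67) and oocyte genes (0.20) turned without Ponceau Red array 3. Dim probe sets have no detection calls, so their differences may be understated.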
